A study of Rattus norvegicus with 12 samples.

Results

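Cytosolic ribosomal protein genes encode the proteins that, with the ribosomal RNAs, build the small and the large subunit of the ribosome in the cytosol. They were taken as the rows of the count table whose symbol is Rpl or Rps followed by a number, with an optional a, x or y, together with Rplp0, Rplp1, Rplp2 and Rpsa. Rows named LOC and numbered second copies were left out, and a sum of at least 100 counts over the 12 libraries was asked for. The rule found 76 genes among 30045 rows, of which 45 belong to the large and 31 to the small subunit. All 76 were among the 17330 genes that passed the filter on low counts, so no member was lost to it. The 3 large subunit members Rplp0, Rplp1 and Rplp2 form the stalk, a flexible arm that binds the translation factors.

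The cells were theca-interstitial cells, the androgen-making cells around the ovarian follicle, isolated from wild-type female Sprague Dawley rats at postnatal day 30. They were grown on plates coated with human fibronectin in McCoy's 5A medium for 48 h with rat interleukin-1β (IL-1β, at a dose that the labels do not give), with lipopolysaccharide (LPS, 1 µg/ml), or with vehicle as the control. IL-1β is an inflammatory cytokine, and LPS is a part of the outer membrane of Gram-negative bacteria that Toll-like receptors detect. Each of the 3 groups had 4 mRNA libraries, with 23193408 to 26836323 counts with IL-1β, 25643226 to 28698783 with LPS and 20873934 to 32090924 in controls. Whether the replicates are separate animals, isolations or wells of 1 isolation is not in the labels. The p-values therefore describe the spread among these libraries, which may be technical.

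The mRNAs of ribosomal proteins are among the most abundant in dividing cells, and the proteins are needed in equal numbers. Most of these mRNAs start with a C followed by a run of C and T, called a 5′ terminal oligopyrimidine (TOP) tract, through which the kinase complex mTORC1 and the protein Larp1 set how strongly they are translated. That control acts on translation and on the stability of the mRNA, so a count of mRNA reports the level of the message and not the output of protein.

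The start sites of the genes are shown because the tract lies there. RefSeq promoters of the rat build GRCr8 matched 61 of the 76 genes. Each line below holds the 15 bases before the annotated start and the first 15 bases from it, read 5′ to 3′ in the direction of the gene, with the longest run of C and T in capitals. The first 6 genes were higher with IL-1β, Rps12 and Rps19 were lower, and Rplp1 and Rps2 were not called.
Rpl13, GRCr8 chr19:68062499-68062528, plus strand: ctttgcggtgcccgaTCCTTTCCgctcggc
Rpl7a, GRCr8 chr3:30637121-30637150, plus strand: CTCTCCTCCagccgagcaagatggtgagtg
Rpl12, GRCr8 chr3:36661925-36661954, plus strand: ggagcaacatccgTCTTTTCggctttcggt
Rpl35, GRCr8 chr3:43165907-43165936, minus strand: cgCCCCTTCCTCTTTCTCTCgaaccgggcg
Rpl5, GRCr8 chr14:1995211-1995240, minus strand: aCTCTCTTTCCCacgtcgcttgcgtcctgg
Rps6, GRCr8 chr5:106420526-106420555, minus strand: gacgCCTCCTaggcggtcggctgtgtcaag
Rps12, GRCr8 chr1:23500060-23500089, plus strand: gcacagaagCCCagcagagcgcttaaatac
Rps19, GRCr8 chr1:89608673-89608702, plus strand: cccgacttgtgcgcccgggaaaCCCCgtcg
Rplp1, GRCr8 chr8:71290858-71290887, minus strand: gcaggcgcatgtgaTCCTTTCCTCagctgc
Rps2, GRCr8 chr10:14251833-14251862, plus strand: CCTCTTCTTTTTCTTCgggaaaacacgtga
A run of at least 8 C or T in this 30-base window was found in 41 of the 61 genes (67.2%), against 11.4% of all 33469 rat promoters in the same table. The annotated start base itself was C in 54.1% of them, against 24.1% of all promoters. A C at the start with at least 4 more C or T after it was found in 37.7%, against 2.63%. Among the 61 genes, the run of at least 8 was present in 25 of the 37 that were higher with IL-1β, in 16 of the 22 that were not called and in neither Rps12 nor Rps19. With LPS it was present in 16 of the 25 that were higher and in 25 of the 36 that were not called. The 300 bases of each promoter were also searched on both strands for CCGGAAG, the core that ETS-family factors bind, which 32.8% of the 61 genes held against 8.75% of all promoters. TATAAA, the TATA box core, was held by 9.84% against 14.2%. Start sites are those of the annotation and were not measured in these cells.

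Ribosomal protein mRNAs made up a slightly larger share of all counts in both treated groups. Their summed share was 2.46% ± 0.0217 with IL-1β, 2.41% ± 0.0193 with LPS and 2.25% ± 0.0354 in controls (SD, n = 4 each). The 4 libraries ran from 2.43% to 2.48% with IL-1β, from 2.39% to 2.43% with LPS and from 2.21% to 2.30% in controls, so neither treated group overlapped the controls. The difference lay in both subunits, as the plot of the shares shows. These are shares of raw counts, as in scaling by library size alone. Under that scaling the median log2 fold change of all genes tested was also raised, to 0.06 with IL-1β and 0.049 with LPS. Part of the difference in shares is therefore not particular to these genes. RNA was taken from whole wells, so a change in the makeup of the cells and a change of RNA per cell cannot be told apart.

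**Figure D1:**
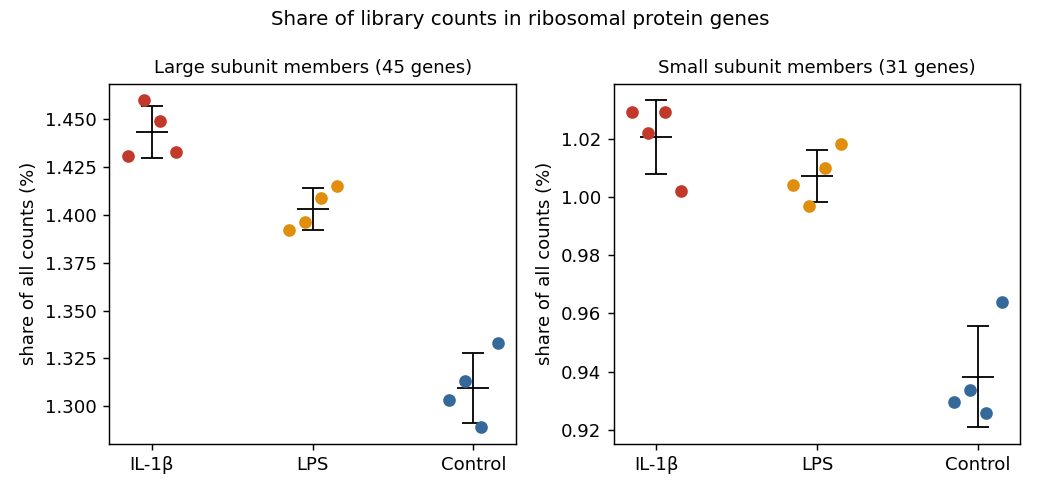
Share of each library's counts (%, vertical axes, which do not start at 0) in the 45 large subunit genes and the 31 small subunit genes. Points are libraries, bars the mean ± SD of 4 libraries. All IL-1β and LPS libraries lie above all control libraries in both panels. Shares are of raw counts, as in scaling by library size alone.

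With IL-1β, 47 of the 76 genes rose, 2 fell (Rps12 and Rps19) and 27 were not called, at an adjusted p under 0.05 by edgeR's quasi-likelihood test. Of all 17330 genes tested, 47.7% were called in this comparison, 24.7% as higher and 23.0% as lower, so the share of ribosomal protein genes called higher (61.8%) was above the background and the share called lower (2.63%) below it. Higher genes were 51.7% of all calls with TMM scaling and 64.1% when libraries were scaled by size alone, where 60 ribosomal protein genes were called higher and 0 lower. The changes were small. The median log2 fold change was 0.09, or 6.09%, against 0.01 over all genes tested, and the 76 values ran from -0.10 to 0.22. Of the 49 calls, 12 were lost when 1 or another library was left out. In 41 genes all 4 IL-1β libraries lay above all 4 control libraries, and in 1 (Rps19) all lay below. Over all genes tested, 22.8% were free of overlap in the higher direction and 21.4% in the lower.

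With LPS, 35 genes rose, none fell and 41 were not called. The background was 42.5% of all genes called, 22.5% as higher and 20.0% as lower, against 46.1% of the ribosomal protein genes called higher. The count of 0 lower is by edgeR, where 0 were lower at an unadjusted p under 0.05 too, and DESeq2 and limma-voom each called 0 lower. The median log2 fold change was 0.06, or 4.57%, within a range of -0.11 to 0.16. In 28 genes all LPS libraries lay above all control libraries, where the background was 20.1% of genes. Scaled by library size alone, 54 were called higher, and 63.4% of all calls were higher, against 53.0% with TMM. The count of higher genes rests in part on control replicate 3, without which it was 23, and 17 of the 35 calls were lost when 1 or another library was left out.

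Both comparisons share the 4 control libraries, so their calls are not independent of each other. Side by side, 32 genes were called higher in both, 15 with IL-1β alone and 3 with LPS alone (Rpl37, Rpl30 and Rpl27). The 2 genes that fell with IL-1β were not called with LPS, and 24 were called in neither. These classes were not counted over all genes tested, so no background stands beside them. Rpl27 and Rpl30 were no longer called when any 1 of control replicates 1 to 3 or LPS replicates 2 to 4 was left out, and Rpl30 also when control replicate 4 was. The heatmap of log2 CPM by library shows the shift, which was less even among the LPS than among the IL-1β libraries. The median over the 76 genes of log2 CPM minus the control mean was 0.076, 0.103, 0.088 and 0.075 in the IL-1β libraries, 0.041, 0.042, 0.084 and 0.083 in the LPS libraries, and -0.012, 0.004, -0.029 and 0.034 in the control libraries. The highest control library thus lay below all treated ones, but close to LPS replicates 1 and 2.

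**Figure D2:**
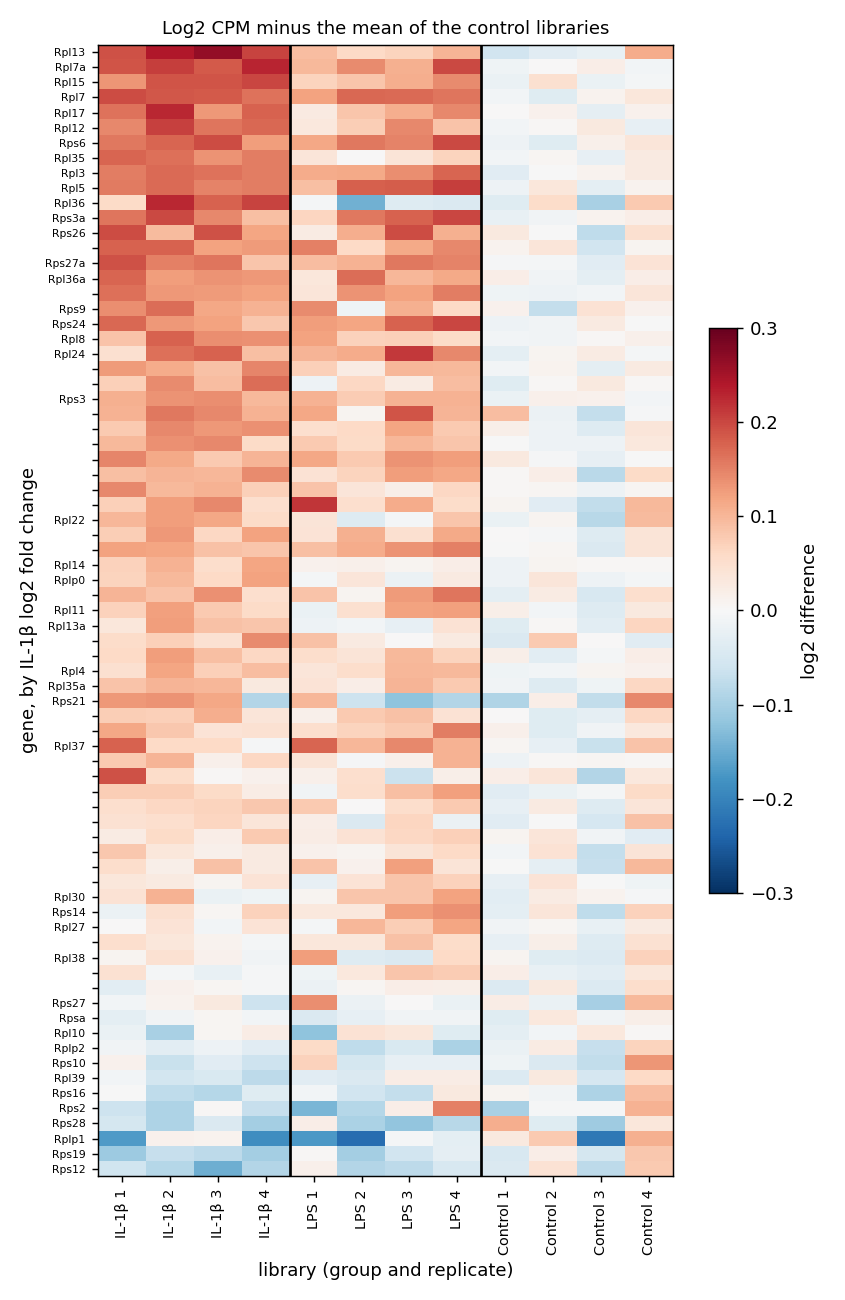
Log2 CPM of 75 of the 76 genes (rows, ordered by their log2 fold change with IL-1β, highest at the top; genes named in the text are labelled) minus the mean of the 4 control libraries, in each of the 12 libraries (columns); red is higher and blue lower, and the colours end at -0.3 and 0.3. Most rows are red in the IL-1β and LPS libraries, and control replicate 4 is redder than the other controls, with 63 of 76 genes above the control mean.

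Replicates of these genes were close to each other. The SD of log2 CPM between replicates, pooled over the groups, had a median of 0.0376 over the 76 genes, against 0.089 over all genes tested. It ran from 0.0176 to 0.123, and was largest in Rplp1. Levels ran from 53.0 to 1134 CPM (counts per library total, scaled by TMM and set to a shared size). The genes tested as a whole include genes at far lower levels, and the comparison of SDs was not matched for level. CPM is not divided by the length of the transcript, so levels of different genes are not compared.

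In the large subunit 32 of 45 genes rose with IL-1β and 25 with LPS, and none fell in either, by edgeR also at an unadjusted p under 0.05 (0 genes), and by DESeq2 and limma-voom. The shares that rose were 71.1% with IL-1β and 55.6% with LPS, against 24.7% and 22.5% of all genes tested. Of all genes tested, 23.0% fell with IL-1β and 20.0% with LPS. Without control replicate 2, control replicate 3 or LPS replicate 4, the count of large subunit genes that rose with LPS was 15 in each case. The largest change with IL-1β was that of Rpl13, which is mutated in a human skeletal dysplasia. Rpl13 had 334, 346, 352 and 337 CPM with IL-1β, 313, 306, 307 and 315 CPM with LPS and 282, 287, 289 and 317 CPM in control libraries. All IL-1β libraries were above all others, and the LPS libraries overlapped the controls through control replicate 4. The log2 fold change of Rpl13 was 0.22 ± 0.03 (SE) with IL-1β (edgeR adjusted p = 9.55e-07) and 0.08 ± 0.03 with LPS (edgeR adjusted p = 0.0439). The LPS call was lost without any 1 of control replicates 1, 2 and 3 and LPS replicates 1 and 4.

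Rpl7a followed with 282, 286, 281 and 290.0 CPM with IL-1β, 265, 273, 267 and 284 CPM with LPS and 246, 248, 251 and 246 CPM in control libraries. Both treated groups were above the controls without overlap. Its log2 fold changes were 0.20 ± 0.03 with IL-1β (edgeR adjusted p = 3.81e-07) and 0.14 ± 0.03 with LPS (edgeR adjusted p = 0.00013). Rpl7 rose by about the same in both, by 0.18 ± 0.03 with IL-1β (edgeR adjusted p = 8.66e-07) and 0.16 ± 0.03 with LPS (edgeR adjusted p = 1.23e-05). Rpl15 had 317, 329.7, 329.6 and 332 CPM with IL-1β, 303, 306, 312 and 319 CPM with LPS and 285, 299, 285 and 288 CPM in control libraries. It was above the controls in every treated library and rose by 0.18 ± 0.03 with IL-1β and 0.10 ± 0.03 with LPS. Rpl24, which bridges both subunits, had 176, 191, 193 and 182 CPM with IL-1β, 183, 184, 198 and 188 CPM with LPS and 167, 172, 173 and 169.9 CPM in control libraries. Its treated libraries were all above the controls, with log2 fold changes of 0.12 ± 0.03 with IL-1β and 0.14 ± 0.03 with LPS.

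Rpl17, Rpl4, Rpl35 and Rpl39 are some of the proteins at the tunnel through which the new protein leaves the ribosome, and no list of them was tested. Rpl17 and Rpl4 reach into the tunnel wall. Rpl17 had 203, 212, 199 and 206 CPM with IL-1β, 185, 193, 196 and 201 CPM with LPS and 182, 183, 178 and 183 CPM in control libraries. It was above the controls in every treated library, at a log2 fold change of 0.17 ± 0.03 with IL-1β and 0.09 ± 0.03 with LPS, the LPS call being lost without LPS replicate 4. Rpl4 rose by 0.08 with IL-1β and 0.07 with LPS, the LPS call being lost without control replicate 1 or 2 or LPS replicate 3 or 4. Rpl35, at the mouth of the tunnel, had 213, 212, 207 and 210.1 CPM with IL-1β, 194, 189, 194 and 198 CPM with LPS and 188, 189, 185 and 192 CPM in control libraries. It rose with IL-1β, by 0.16 ± 0.03 (edgeR adjusted p = 1.1e-05), while with LPS the libraries overlapped the controls and the log2 fold change was 0.04 ± 0.03 (edgeR adjusted p = 0.291). Rpl39, a very short protein in the tunnel, was not called in either, at -0.05 and -0.01 on the log2 scale with IL-1β and with LPS.

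Rpl3, which reaches towards the centre where the peptide bond is made, had 764, 771, 768 and 762 CPM with IL-1β, 742, 743, 756 and 774 CPM with LPS and 670.0, 685, 691 and 698 CPM in control libraries. All treated libraries were above all controls, with log2 fold changes of 0.16 ± 0.03 with IL-1β and 0.14 ± 0.03 with LPS. Rpl5 and Rpl11 sit with the 5S ribosomal RNA and, when free of the ribosome, bind Mdm2 and so stabilise p53. Rpl5 had 488, 493, 485 and 487 CPM with IL-1β, 466, 496, 496 and 505 CPM with LPS and 433, 448, 429 and 441 CPM in control libraries. No treated library overlapped the controls, and Rpl5 had by a small margin the largest log2 fold change with LPS, 0.16 ± 0.03 (edgeR adjusted p = 1.55e-05), and 0.16 ± 0.03 with IL-1β (edgeR adjusted p = 2.42e-05). Its partner Rpl11 moved less, with 249, 258, 250.0 and 247 CPM with IL-1β, 234, 245, 258 and 258 CPM with LPS and 239.8, 235, 231 and 242 CPM in control libraries. The LPS libraries of Rpl11 lay on both sides of the controls. The log2 fold change of Rpl11 was 0.08 ± 0.03 with IL-1β (edgeR adjusted p = 0.0288), a call that was lost without control replicate 2, control replicate 3 or IL-1β replicate 2. With LPS it was 0.07 ± 0.03 (edgeR adjusted p = 0.0703).

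At the foot of the stalk, Rpl12 helps to receive the elongation factors. Rpl12 had 234, 244, 237 and 239 CPM with IL-1β, 217, 223, 234 and 225 CPM with LPS and 211, 212, 216 and 208 CPM in control libraries. It rose with both, by 0.17 ± 0.03 with IL-1β and 0.08 ± 0.03 with LPS, and all treated libraries were above the controls. The LPS call was lost without LPS replicate 3. None of the stalk proteins rose with both, and only Rplp0 rose with IL-1β. Rplp0, the stalk's base, had 1092, 1117, 1087 and 1134 CPM with IL-1β, 1039, 1070.4, 1030.5 and 1064 CPM with LPS and 1033, 1069, 1032 and 1039 CPM in control libraries. It rose with IL-1β by 0.09 ± 0.03 (edgeR adjusted p = 0.00722), while the LPS libraries overlapped the controls (log2 fold change 0.01 ± 0.03, edgeR adjusted p = 0.785). Rplp1, an acidic protein of the stalk's tip, had 481, 547, 545 and 476 CPM with IL-1β, 481, 462, 539 and 531 CPM with LPS and 553, 572, 467 and 583 CPM in control libraries. Its groups overlapped throughout, and control replicate 3 was far below the other controls. The log2 fold change of Rplp1 was -0.09 ± 0.08 with IL-1β (edgeR adjusted p = 0.444) and -0.11 ± 0.08 with LPS (edgeR adjusted p = 0.326). Rplp2, the partner of Rplp1, was not called either, at -0.03 ± 0.03 with IL-1β and -0.04 ± 0.03 with LPS.

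Among other large subunit genes at the low end of the ranking, Rpl10, which is added late in the maturation of the subunit, was not called (log2 fold change -0.02 with IL-1β and -0.02 with LPS). Nor was Rpl38, known in mouse embryos for its part in translating Hox mRNAs (0.01 with IL-1β and 0.03 with LPS). Rpl37 had 134, 124, 124 and 118 CPM with IL-1β, 134, 127, 131 and 128 CPM with LPS and 119, 117, 113 and 126 CPM in control libraries. It was above the controls in every LPS library and rose with LPS by 0.13 ± 0.04, while the IL-1β libraries overlapped the controls (log2 fold change 0.07 ± 0.04).

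**Figure D3:**
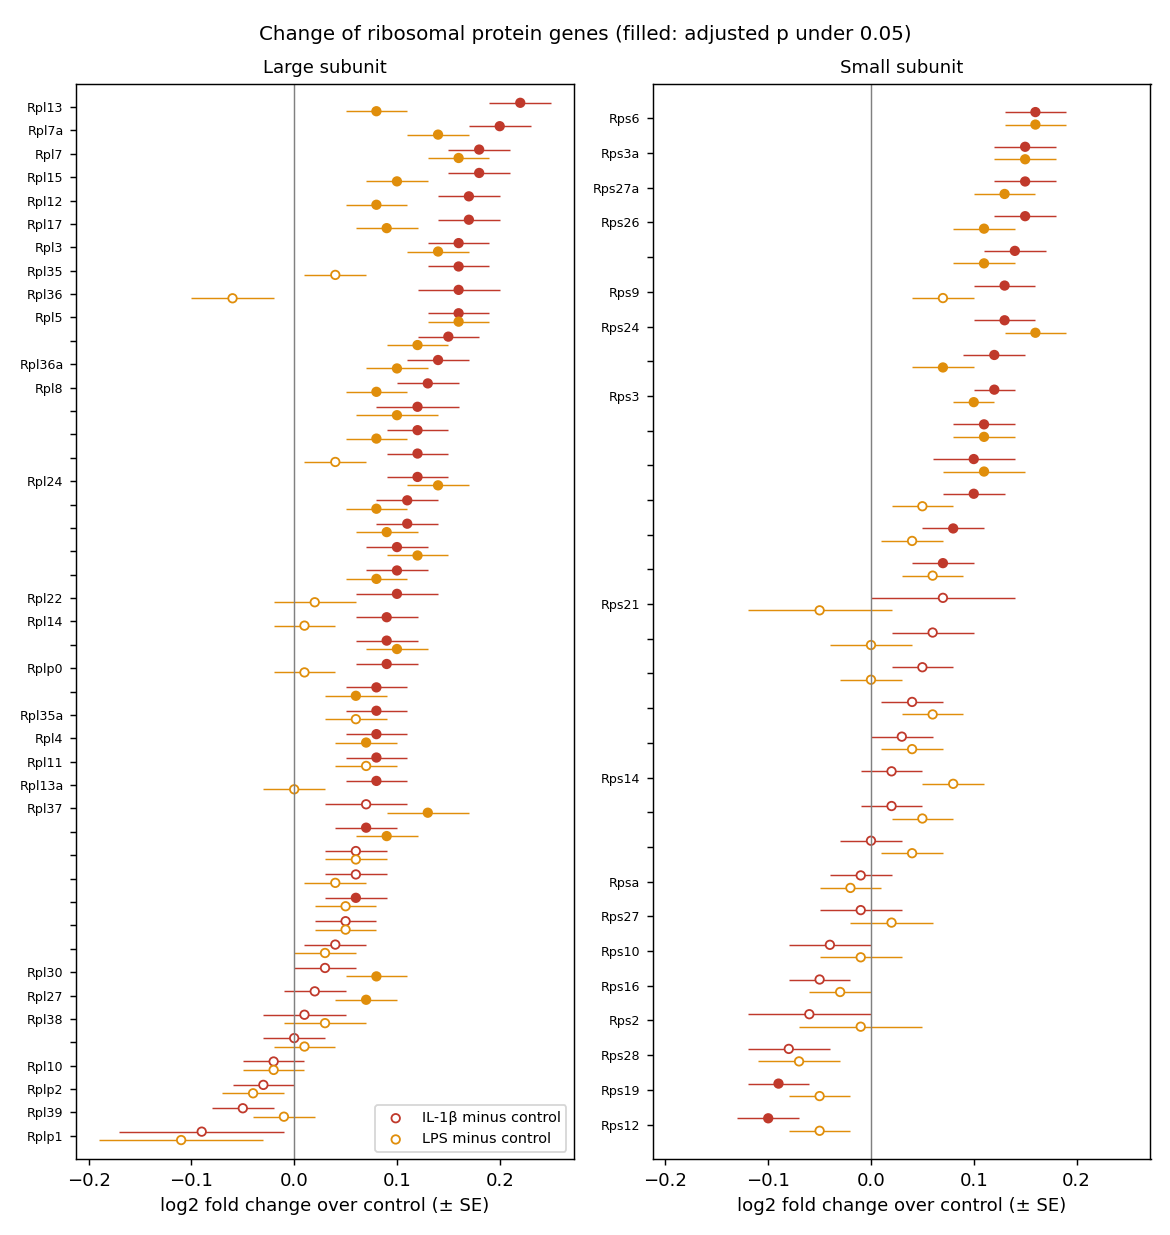
Log2 fold change over control (horizontal axis, ± SE) of 75 of the 76 genes with IL-1β (red) and LPS (orange), 4 libraries a group, with genes named in the text labelled; filled points passed an adjusted p under 0.05 over all genes tested and open points did not. Most points of both panels lie right of zero, and the filled points left of it are Rps19 and Rps12 with IL-1β.

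In the small subunit 15 of 31 genes rose with IL-1β and 2 fell, and 10 rose with LPS and none fell. With IL-1β 48.4% rose and 6.45% fell, against 24.7% and 23.0% of all genes tested. With LPS 32.3% rose, against 22.5% of all genes tested, of which 20.0% fell. The median log2 fold change was 0.07 with IL-1β and 0.05 with LPS, against 0.09 and 0.07 in the large subunit; the difference between the subunits was not tested. Rps6, the protein that S6 kinase phosphorylates downstream of mTORC1, was at the top with IL-1β. Rps6 had 612, 619, 629 and 599 CPM with IL-1β, 595, 612, 608 and 629.6 CPM with LPS and 543, 535, 554 and 563 CPM in control libraries. All treated libraries were above all controls. Its log2 fold changes were 0.16 ± 0.03 with IL-1β (edgeR adjusted p = 1.04e-05) and 0.16 ± 0.03 with LPS (edgeR adjusted p = 2.55e-05). Another row of the table held counts within 2% of those of Rps6 in every library, so its reads may stand in both.

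Rps24, which is mutated in some families with Diamond-Blackfan anaemia, had 418, 406, 404 and 393 CPM with IL-1β, 405, 403, 420.0 and 426 CPM with LPS and 368, 369, 378 and 371 CPM in control libraries. Its treated libraries were all above the controls, with log2 fold changes of 0.13 ± 0.03 with IL-1β and 0.16 ± 0.03 with LPS. Rps3a had 500.2, 514, 495 and 476 CPM with IL-1β, 468, 499, 506 and 514 CPM with LPS and 441, 444, 451 and 454 CPM in control libraries. It was above the controls in every treated library and rose by 0.15 ± 0.03 with IL-1β and 0.15 ± 0.03 with LPS. Rps3, at the entrance of the mRNA channel, rose by 0.12 ± 0.02 and 0.10 ± 0.02, and Rps26, near its exit, by 0.15 ± 0.03 and 0.11 ± 0.03, with IL-1β and with LPS in that order; the LPS call of Rps26 was lost without control replicate 3 or LPS replicate 3.

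The genes that fell with IL-1β are both in the small subunit. Rps19, the gene most often mutated in Diamond-Blackfan anaemia, had 258, 265, 263 and 259 CPM with IL-1β, 279, 259, 268 and 273 CPM with LPS and 269, 282, 268 and 294 CPM in control libraries. The IL-1β libraries lay just below all controls, and the LPS libraries overlapped them. Its log2 fold change was -0.09 ± 0.03 with IL-1β (edgeR adjusted p = 0.0145) and -0.05 ± 0.03 with LPS (edgeR adjusted p = 0.23), and it too had a row within 2% of it. Of the rows matched to copies of Rps19, Rps19l4 was called lower with IL-1β (-0.1). The copies Rps19-ps2 (-0.04) and Rps19l1 (-0.09) were not called. Rps12, known in Drosophila for its part in competition between cells, had 185, 182, 175 and 182 CPM with IL-1β, 195, 182, 183 and 187 CPM with LPS and 187, 199, 183 and 204 CPM in control libraries. One IL-1β library lay above the lowest control. The log2 fold change of Rps12 was -0.10 ± 0.03 with IL-1β (edgeR adjusted p = 0.0164) and -0.05 ± 0.03 with LPS (edgeR adjusted p = 0.219). Neither call held without control replicate 4, and that of Rps12 was also lost without control replicate 2 or IL-1β replicate 3; without control replicate 3 the count of genes that fell was 4, with Rps16 and Rps28 added. By library size alone, 0 fell.

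Rps28 had 62.1, 60.4, 62.5 and 60.0 CPM with IL-1β, 65.3, 60.3, 59.3 and 60.7 CPM with LPS and 69.4, 62.8, 59.7 and 66.0 CPM in control libraries. The groups overlapped, and it was not called with IL-1β (-0.08 ± 0.04) or with LPS (-0.07 ± 0.04). Rps2, Rps16 and Rps10 were likewise not called, at -0.06, -0.05 and -0.04 on the log2 scale with IL-1β. Rps21 had 97.4, 97.6, 96.4 and 83.7 CPM with IL-1β, 95.4, 85.2, 81.8 and 83.7 CPM with LPS and 83.6, 90.3, 84.5 and 98.3 CPM in control libraries. IL-1β replicates 1, 2 and 3 lay above most other libraries and replicate 4 did not, and Rps21 was not called (log2 fold change 0.07 ± 0.07 with IL-1β and -0.05 ± 0.07 with LPS). Rpsa, which is also known as a precursor of a laminin receptor, stayed within narrow limits, with 554, 562, 568 and 562 CPM with IL-1β, 549, 556, 562 and 561 CPM with LPS and 552, 578, 562 and 573 CPM in control libraries. All its groups overlapped, and its log2 fold change was -0.01 ± 0.03 with IL-1β and -0.02 ± 0.03 with LPS.

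Some ribosomal proteins are made as fusions with ubiquitin or a ubiquitin-like protein. Rps27a, fused to ubiquitin, had 682, 663, 667 and 632 CPM with IL-1β, 637, 642, 666 and 662 CPM with LPS and 596, 595, 583 and 615 CPM in control libraries. Every treated library was above every control, and Rps27a rose by 0.15 ± 0.03 with IL-1β (edgeR adjusted p = 7.5e-05) and 0.13 ± 0.03 with LPS (edgeR adjusted p = 0.000516). Fau, which joins a ubiquitin-like protein to a small subunit protein, lies outside the symbol rule. Fau was not called, at 0.04 ± 0.03 with IL-1β and 0.01 ± 0.03 with LPS.

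Of 10 tested ribosomal protein genes outside the symbol rule, 2 rose and 3 fell with IL-1β, and 2 rose and 1 fell with LPS. With IL-1β 20% rose and 30% fell, against 24.7% and 23.0% of all genes tested. With LPS 20% rose and 10% fell, against 22.5% and 20.0%. The shares that rose were thus near the background. Gnb2l1, the gene of the scaffold protein Rack1 on the small subunit, had 604, 595, 583 and 607 CPM with IL-1β, 575, 583, 579 and 606 CPM with LPS and 548, 566, 549 and 573 CPM in control libraries. It was above the controls in all treated libraries and rose by 0.10 ± 0.03 with IL-1β and 0.07 ± 0.03 with LPS, the LPS call being lost without any 1 of control replicates 1, 2 and 3 and LPS replicates 2 and 4. Rpl22l1, the paralog (diverged copy) of Rpl22, had 40.6, 40.8, 41.2 and 39.5 CPM with IL-1β, 41.7, 42.9, 46.6 and 46.0 CPM with LPS and 42.7, 44.0, 43.5 and 44.6 CPM in control libraries. It was below all controls in every IL-1β library, at a log2 fold change of -0.11 ± 0.04 (edgeR adjusted p = 0.031), against 0.10 ± 0.04 for Rpl22 itself. The call of Rpl22l1 was lost without control replicate 2 or 4 or IL-1β replicate 1 or 4, and that of Rpl22 without any 1 of control replicates 1, 2 and 3 and IL-1β replicates 1, 2 and 3. With LPS, Rpl22l1 overlapped the controls (0.02 ± 0.04).

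Rps27l, a paralog of Rps27 known as a p53 target in human cells, had 52.1, 55.9, 57.2 and 53.7 CPM with IL-1β, 54.4, 59.1, 64.2 and 63.5 CPM with LPS and 59.5, 60.4, 63.0 and 59.6 CPM in control libraries. All IL-1β libraries were below all controls, and the log2 fold change was -0.15 ± 0.04 with IL-1β (edgeR adjusted p = 0.00874) and -0.01 ± 0.04 with LPS (edgeR adjusted p = 0.931). Rpl36al fell with IL-1β (log2 fold change -0.16 ± 0.04), while its paralog Rpl36a rose by 0.14 ± 0.03. Rpl7l1, by contrast, rose in both, by 0.07 ± 0.03 with IL-1β and 0.17 ± 0.03 with LPS, but the IL-1β call was lost without any 1 library of that comparison other than control replicate 3. Rpl39l had under 1 CPM in all libraries and was called lower with LPS alone (-0.75 ± 0.27, edgeR adjusted p = 0.0281). Leaving out control replicate 1 or 4 or LPS replicate 2, 3 or 4 ended that call. Rpl10l and Rps4y2 were not called.

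Set directly against each other, LPS and IL-1β differed in few ribosomal protein genes. No gene was higher with LPS than with IL-1β and 10 were lower, by edgeR's quasi-likelihood test, against a background of 21.9% of genes called, 11.3% as higher and 10.6% as lower, so that 13.2% called lower was near the background. At an unadjusted p under 0.05, 0 were higher by edgeR, and DESeq2 and limma-voom each called 0 higher. Of the 10, 9 were of the large subunit. The median log2 difference over the 76 genes was -0.02. The count was 3 without IL-1β replicate 2 or LPS replicate 1, 4 without IL-1β replicate 4 or LPS replicate 2, and 5 without LPS replicate 3.

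Rpl36 had the largest difference, with 95.3, 86.6, 93.2 and 92.8 CPM with LPS, 99.6, 112, 108 and 110.1 CPM with IL-1β and 93.3, 99.4, 89.4 and 101 CPM in control libraries. All LPS libraries were below all IL-1β libraries, while both groups overlapped the controls. Its matched copy Rpl36l2, with 0.187 times the counts, was called lower with LPS than with IL-1β too (-0.2 on the log2 scale). Over control that copy was 0.04 with IL-1β, not called, and -0.16 with LPS, called lower. Rpl36 was -0.22 ± 0.04 on the log2 scale with LPS relative to IL-1β (edgeR adjusted p = 0.000316), and its log2 fold change over control was -0.06 ± 0.04 with LPS (edgeR adjusted p = 0.254) and 0.16 ± 0.04 with IL-1β (edgeR adjusted p = 0.00198). Rpl13 and Rpl35, whose values stand above, were -0.14 ± 0.03 and -0.12 ± 0.03. These 3 were the genes that were called in every fit with 1 library left out. The others included Rpl12 (-0.09), Rpl13a (-0.08), Rpl17 (-0.08), Rpl15 (-0.08), Rplp0 (-0.08) and Rpl14 (-0.07). Rpl13a, known in human myeloid cells as part of a complex that silences inflammatory mRNAs after its release from the ribosome, had 223, 225, 222 and 232 CPM with LPS, 231, 246, 240.0 and 239 CPM with IL-1β and 220.2, 226, 221 and 236 CPM in control libraries. LPS replicate 4 of Rpl13a lay just above IL-1β replicate 1, and control replicate 4 lay above all LPS libraries. At the other end, Rps14 had the highest difference, 0.06 ± 0.03 (edgeR adjusted p = 0.245), and was not called, nor were Rpl37 (0.05), Rpl27 (0.05), Rpl30 (0.05) and Rps12 (0.05). Rps21 was -0.12 ± 0.07 and not called.

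Other mRNAs known to carry a TOP tract were set beside the ribosomal protein genes. Of 13 tested, 8 rose with IL-1β and 1 fell, and 9 rose with LPS and 1 fell, with a median log2 fold change of 0.09 in each. The shares that rose were 61.5% with IL-1β and 69.2% with LPS, against 24.7% and 22.5% of all genes tested. Eif3f and Eif3h, subunits of the initiation factor that keeps the small subunit ready for mRNA, rose by 0.22 ± 0.03 and 0.20 ± 0.03 with IL-1β and by 0.14 ± 0.03 and 0.18 ± 0.03 with LPS. Pabpc1, the poly(A)-binding protein, rose by 0.14 ± 0.03 with IL-1β and 0.17 ± 0.03 with LPS. Tpt1, a growth-linked protein with a classical TOP mRNA, rose by 0.14 ± 0.03 and 0.09 ± 0.03, and Eef1a1, which brings tRNA to the ribosome, by 0.09 ± 0.03 and 0.08 ± 0.03, with IL-1β and with LPS in that order; the LPS call of Eef1a1 was lost without LPS replicate 4. Eef1d, of the factor that recharges Eef1a1, was the one that fell, at -0.15 ± 0.03 with IL-1β and -0.08 ± 0.03 with LPS, the LPS call being lost without any 1 of control replicates 1, 2 and 3 and LPS replicates 2 and 4. Of all 11 elongation and release factors tested, 2 rose and 3 fell with IL-1β, and 2 rose and 2 fell with LPS. These shares, 18.2% and 27.3% with IL-1β and 18.2% and 18.2% with LPS, were near those of all genes tested. The release factor Gspt1 was among those that fell, at -0.23 ± 0.03 with IL-1β and -0.15 ± 0.03 with LPS. Its partner Etf1, which reads the stop codon, rose with LPS (0.12 ± 0.03) and was not called with IL-1β (0.05 ± 0.03). Abce1, which splits the ribosome after termination, fell with IL-1β (-0.16 ± 0.03) and was 0.00 ± 0.03 and not called with LPS.

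The genes that assemble ribosomes did not follow the same order of the treatments. Of 72 ribosome biogenesis genes tested, 50 were higher with LPS and 0 lower (69.4% higher against 22.5% of all genes), with a median log2 fold change of 0.16. With IL-1β 15 were higher and 10 lower (20.8% and 13.9%, against 24.7% and 23.0% of all genes), with a median of 0.02. Set directly, 40 were higher with LPS than with IL-1β and 0 lower, with a median log2 difference of 0.14. The share higher was 55.6%, against 11.3% of all genes, of which 10.6% were lower. In both comparisons of LPS 0 were lower by edgeR at an unadjusted p under 0.05 and 0 by DESeq2 or limma-voom. With LPS the count of higher genes was between 44 and 51 when each library was left out in turn. Relative to IL-1β it was between 30 and 42. With IL-1β it was 9 without IL-1β replicate 1, and 5 were lower without control replicate 1; by library size alone 26 were higher and 3 lower.

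Heatr1, needed for the transcription and first processing of ribosomal RNA, rose by 0.34 ± 0.04 with LPS and 0.14 ± 0.05 with IL-1β, and the difference between the treatments was 0.20 ± 0.04 (edgeR adjusted p = 0.00144). Fbl, the methylase that marks ribosomal RNA, rose by 0.27 ± 0.04 with LPS and 0.13 ± 0.04 with IL-1β. Npm1, a nucleolar chaperone that also has a TOP tract, rose by 0.22 ± 0.03 and 0.09 ± 0.03 with LPS and with IL-1β in that order. The IL-1β calls of Heatr1 and Npm1 were each lost without control replicate 2 or 4 or IL-1β replicate 1 or 3. Polr1e, a subunit of RNA polymerase I, rose by 0.60 ± 0.08 with LPS and 0.42 ± 0.08 with IL-1β, and Ubtf, which opens the ribosomal RNA genes to that polymerase, by 0.25 ± 0.03 and 0.19 ± 0.03. Some genes were called in opposite directions. Nop14, Utp20 and Tsr1, of small subunit assembly, were 0.13, 0.14 and 0.13 with LPS, called higher, and -0.11, -0.11 and -0.10 with IL-1β, called lower. The differences between the treatments were 0.24 ± 0.04, 0.25 ± 0.04 and 0.23 ± 0.03 on the log2 scale, and each was called in every fit with 1 library left out. The IL-1β call of Utp20 was lost without control replicate 1 or 3 or IL-1β replicate 2, and that of Tsr1 without control replicate 1 or IL-1β replicate 4. Rcl1, of the same pathway, had the largest change of the list, 1.22 ± 0.05 with LPS and 1.03 ± 0.05 with IL-1β.

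Of 34 initiation factors tested, 9 rose and 12 fell with IL-1β (26.5% and 35.3%, against 24.7% and 23.0% of all genes tested), so the share that rose was near the background. With LPS 13 rose and 3 fell (38.2% and 8.82%, against 22.5% and 20.0%). Relative to IL-1β, 14 were higher with LPS and 0 lower (41.2% higher, against 11.3% of all genes), a count that was 7 without LPS replicate 3 and 8 without IL-1β replicate 2 or IL-1β replicate 4. At an unadjusted p under 0.05, 1 was lower by edgeR, and 0 were called lower by DESeq2 and by limma-voom. Eif6, which keeps the large subunit from joining too early, rose by 0.31 ± 0.03 with LPS and 0.09 ± 0.03 with IL-1β, the IL-1β call being lost without control replicate 3 or 4 or IL-1β replicate 1. Eif2s2, of the factor that brings the first tRNA, fell with IL-1β (-0.30 ± 0.04) and was not called with LPS (-0.08 ± 0.04). Eif4a1, the helicase that unwinds the start of the mRNA, rose by 0.23 ± 0.03 with LPS and 0.12 ± 0.03 with IL-1β, while its scaffold Eif4g1 fell with both, at -0.13 ± 0.03 with LPS and -0.18 ± 0.03 with IL-1β. The mitochondrial ribosome, which is built from other genes, served as a further list. Of 73 such genes, 9 rose and 7 fell with IL-1β and 10 rose and 4 fell with LPS, with medians of 0.00 and 0.03 on the log2 scale. The shares called higher, 12.3% and 13.7%, were below those of all genes tested. Mrpl15 and Mrpl44 rose with IL-1β, by 0.23 ± 0.05 and 0.20 ± 0.06, and with LPS, by 0.27 ± 0.04 and 0.22 ± 0.06. Mrps21 rose with IL-1β (0.20 ± 0.05) and was not called with LPS (0.09 ± 0.05). Mrpl51 fell with IL-1β (-0.23 ± 0.05) and with LPS (-0.14 ± 0.05, a call lost without LPS replicate 3). Mrpl14 fell with LPS (-0.31 ± 0.07) and with IL-1β (-0.20 ± 0.07, a call lost without control replicate 3 or IL-1β replicate 2 or 4). With LPS the count of higher genes was 5 without LPS replicate 3 or LPS replicate 4, and 4 fell with IL-1β without IL-1β replicate 1 or IL-1β replicate 2.

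**Figure D4:**
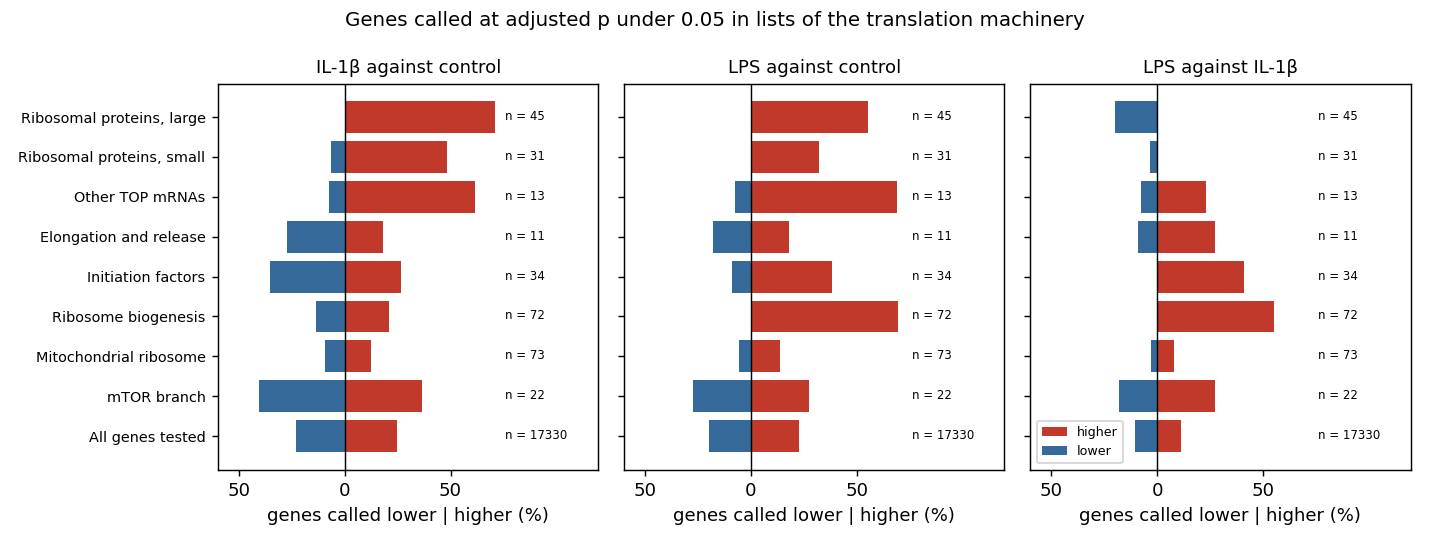
Share of the tested genes of each list (%) called higher (red, to the right) and lower (blue, to the left) at an adjusted p under 0.05 in the 3 comparisons, with the number tested at the right and all 17330 genes as the last row. Of the ribosomal protein genes, 61.8% are called higher with IL-1β, 46.1% with LPS, and 13.2% lower with LPS relative to IL-1β, while 55.6% of the ribosome biogenesis genes are higher with LPS than with IL-1β.

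Many rat ribosomal protein genes have near copies elsewhere in the genome, and reads of a gene and its copies are hard to separate. By RefSeq names matched through the gene ID or symbol, 100 rows of the table were taken as copies of 54 of the 76 genes. Together they held 0.836 times the counts of the 76 genes. Among them are rows that RefSeq names Rps27a, Rps4x and Rps9, like the genes themselves, so not all need be separate copies. Only 3889 of the 9728 rows named LOC could be matched, so further copies may be missing from these counts. In 45 of these rows the count was above that of the gene itself. Rpl38 was the plainest case: its copies Rpl38-ps1 and Rpl38-ps3 held 50712 and 50709 counts in all 12 libraries together, 2.88 times the 17616 counts of Rpl38. So values of single genes are uncertain where copies exist, and 6 genes (Rpl35a, Rpl8, Rplp2, Rps19, Rps6 and Rps9) had a row within 2% of their own in every library. Of the 89 copy rows tested, 36 rose and 6 fell with IL-1β, and 33 rose and 2 fell with LPS. Of all genes tested, 24.7% rose and 23.0% fell with IL-1β, and 22.5% rose and 20.0% fell with LPS. Copy rows of 1 gene with nearly the same counts may hold the same reads, so these are not counts of separate genes. Genes and matched copies together took 4.51% ± 0.0429 of counts with IL-1β, 4.43% ± 0.0344 with LPS and 4.13% ± 0.0673 in controls (SD, n = 4 each). With the counts of each gene's matched copies added to it, no called gene turned its direction, but some calls changed. With IL-1β, 45 of 47 higher and 2 of 2 lower genes kept their call, and Rpl39 was called lower too. With LPS 33 of 35 higher genes kept it, and between treatments 7 of 10 lower genes did. Reads that stand in several copy rows are added more than once in that fit.

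Summed levels of theca-interstitial, smooth muscle, macrophage, endothelial and stromal fibroblast markers lay apart from the controls in both treated groups, and those of granulosa markers overlapped them. Summed CPM of 6 theca-interstitial markers was 572 to 622 with IL-1β, 431 to 495 with LPS and 202 to 233 in controls. Cyp17a1, the enzyme that defines androgen-making theca cells, had 276 to 455 counts per library with IL-1β, 51 to 143 with LPS and 12 to 18 in controls, and Star, which brings cholesterol to the steroid enzymes, had 9218 to 11068 counts with IL-1β, 9091 to 10312 with LPS and 3008 to 4917 in controls. Summed CPM of 4 smooth muscle markers was 791 to 882 with IL-1β, 986 to 1114 with LPS and 2679 to 2866 in controls, and all 4 fell in both. Of 6 macrophage markers tested, all fell with IL-1β, and 5 fell and 1 rose with LPS, with sums of 40.0 to 43.3, 43.0 to 48.3 and 87.1 to 90.2 CPM in the IL-1β, LPS and control libraries. Endothelial markers, 4 of 4 higher in both, summed to 205 to 237 with IL-1β, 148 to 197 with LPS and 91.5 to 109 in controls. The 4 granulosa markers summed to 64.1 to 65.9, 54.0 to 59.9 and 53.7 to 64.5 CPM, and the 4 stromal fibroblast markers to 4512 to 5027, 3818 to 4328 and 5725 to 6426 CPM, in the IL-1β, LPS and control libraries. Of the 4 stromal fibroblast markers, 2 rose and 2 fell with IL-1β and likewise with LPS, and Col1a1 held most of their counts. Their sum therefore does not stand for all 4. Of the 4 granulosa markers, 2 rose and 1 fell with IL-1β, and 1 rose and 1 fell with LPS. The part of these marker shifts in the changes of ribosomal protein genes was not tested.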

How the data were processed

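The authors deposited 1 table of raw read counts, with a row for each gene symbol, a column for each of 12 libraries and no normalization. Per the labels' protocols, RNA was isolated with the MagMAX-96 kit, and stranded mRNA libraries (TruSeq) were sequenced on an Illumina HiSeq4000. Reads were handled with TopHat2 2.1.1 and SAMtools on the rat build Rnor_6.0, per the submitters' processing notes, which also name DESeq2; the counter, the annotation and the treatment of reads that map to several copies are not given in the sources used here. Counts on similar gene copies are therefore uncertain.

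The tests used edgeR 4.0.16 under R 4.3.3. After filterByExpr, libraries were scaled by TMM, and 1 model with the 3 groups was fitted to all 12 libraries (glmQLFit, robust). The quasi-likelihood tests are two-sided, p-values were adjusted by Benjamini-Hochberg over all 17330 genes tested, and the threshold for a call was 0.05, whatever the fold. SEs were taken from F as the absolute log2 fold change over its square root. CPM uses TMM-scaled totals. The procedure was tested on simulated counts. The members and lists were chosen with earlier results of these data known, so lists are described by counts and medians, with no test. Named were the 8 highest and 8 lowest genes by log2 fold change in each comparison with control, the 5 highest and 5 lowest between treatments, genes called against the majority, a fixed set by role, and in each other list the 3 genes with the smallest p in each comparison with control; others named for their place in the ribosome or in a list were chosen after their values were seen. Alternatives were other scalings (DESeq2 size factors, upper quartile, library size alone), other filters, DESeq2 1.42.0, limma-voom with limma 3.58.1, a replicate block, fits on 8 libraries, and each library left out. Replicates differed by more than sampling noise (chi-square per gene of 1.82 to 5.21 over 18 pairs), and none was taken as a duplicate. Sequences are from RefSeq promoters (GRCr8), matched by symbol. Rpl37a was not analysed here. Some single-gene results are not reported here.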

Additional observations from a re-analysis of the deposited data

Results flagged for a closer look

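Rps21 in IL-1β replicate 4 stood apart from the other libraries of its group, at 83.7 CPM against 96.4 to 97.6 CPM. The gap to the nearest library was 0.91 of the range of the group. Over the named genes and the share of counts, 99 groups of 4 libraries were examined in this way and 1 stood apart; over all 76 genes and the share it was 7 of 231. Chance alone marks about 1 group in 20.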

How the results depend on the processing

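In all alternatives tried, no called ribosomal protein gene turned its direction. By library size alone, 60 genes were higher with IL-1β, 0 were lower and the median log2 fold change was 0.14, while with LPS 54 were higher and the median was 0.10. That scaling moves all genes: their median became 0.06 with IL-1β and 0.049 with LPS, and 64.1% and 63.4% of all calls were higher, against 51.7% and 53.0% with TMM. At an adjusted p under 0.01, 0 were lower with IL-1β, 17 were higher with LPS and 3 were lower with LPS than with IL-1β. That last count was 5 with no low-count filter and 5 on the 8 libraries compared. Without the genes that have a near-identical row, chosen after seeing the data, 1 gene was lower with IL-1β.

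With each library left out in turn, 37 to 47 genes were higher and 0 to 4 lower with IL-1β, 23 to 37 higher and 0 to 1 lower with LPS, and 0 to 1 higher and 3 to 11 lower with LPS than with IL-1β. Calls held in every such fit for 37 of 49 genes with IL-1β, 18 of 35 with LPS and 3 of 10 between treatments. DESeq2 called 39 higher and 2 lower with IL-1β and 30 higher and 0 lower with LPS. Same-numbered libraries of different groups correlated at -0.03 to 0.12, and libraries with other numbers at -0.07 to 0.06. For 5 of the 12 libraries, the closest library in both other groups had their own number. Whether the numbers pair the libraries was not tested. With a replicate block, 47 genes were higher and 2 lower with IL-1β, and 38 were higher with LPS. In that fit 11 were lower with LPS than with IL-1β. These genes had at least 53.0 CPM in each library.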

Other observations

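Of 22 genes of the mTOR branch, which acts upstream of TOP mRNAs, 8 rose and 9 fell with IL-1β (36.4% and 40.9%, against 24.7% and 23.0% of all genes tested). With LPS 6 rose and 6 fell (27.3% each, against 22.5% and 20.0%). Ddit4, an inhibitor of mTORC1 induced by stress, rose by 1.52 ± 0.06 with IL-1β and 0.72 ± 0.07 with LPS, and the treatments differed by -0.80 ± 0.06. The sestrins, which hold back mTORC1 when amino acids are short, were divided: Sesn2 fell with IL-1β (-0.69 ± 0.05) and with LPS (-0.46 ± 0.05), and Sesn3 rose by 0.62 ± 0.05 with IL-1β and 0.16 ± 0.05 with LPS. Rheb, the small GTPase that switches mTORC1 on, fell with IL-1β (-0.38 ± 0.03) and with LPS (-0.21 ± 0.03). Rragd, a GTPase that brings mTORC1 to the lysosome, fell with IL-1β (-1.05 ± 0.13) and with LPS (-0.48 ± 0.12). Larp1, which binds the TOP tract, fell with IL-1β (-0.16 ± 0.03, edgeR adjusted p = 0.000122) and was not called with LPS (-0.03 ± 0.03, edgeR adjusted p = 0.563). Mtor itself rose by 0.12 ± 0.03 and 0.11 ± 0.03, and Myc, a transcription factor that drives ribosome production, by 0.42 ± 0.04 and 0.54 ± 0.04, with IL-1β and with LPS in that order. Levels of mRNA do not report the activity of these kinases.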
